A study of Mus musculus with 4 samples.

Results

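The 5 mature strands of the mouse miR-103 and miR-107 hairpins were examined in MIN6 cells and in the exosomes that these cells released. They are mmu-miR-103-3p, mmu-miR-103-1-5p, mmu-miR-103-2-5p, mmu-miR-107-3p and mmu-miR-107-5p, taken by name from a table of 1915 mature miRNAs, and all 5 were found in it. MIN6 is an insulinoma line of mouse pancreatic beta cells, which stands as a tumour model of the beta cell. There were 2 libraries of untreated cells and 2 libraries of exosomes, which were pelleted by ultracentrifugation from the medium of several pooled flasks, and all cultures were fed with fetal bovine serum depleted of exosomes. The labels give no genotype and do not say whether the 2 libraries of a group came from separate cultures, so a p-value given here measures only the spread between these libraries, which may be technical.

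A miRNA guides a silencing complex to messenger RNAs that pair with its seed, the bases near its 5′ end. The miR-103 and miR-107 hairpins lie in introns of the Pank genes, which encode the pantothenate kinases that open the synthesis of coenzyme A. The pair is known from work in mouse liver and fat as a negative regulator of insulin sensitivity, with the caveolin gene Cav1 as a target, and it is also known to lower Dicer, the enzyme that cuts miRNA hairpins.

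The sequences show how alike the members are and how little of a read tells them apart. The mature strands are given here from RefSeq, 5′ to 3′, with the seed (bases 2 to 8) in capitals.
mmu-miR-103-3p: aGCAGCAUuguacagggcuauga
mmu-miR-107-3p: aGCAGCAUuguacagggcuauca
mmu-miR-103-1-5p: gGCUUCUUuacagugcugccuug
mmu-miR-103-2-5p: aGCUUCUUuacagugcugccuug
mmu-miR-107-5p: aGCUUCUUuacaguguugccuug

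All 5 strands have 23 bases, and they fall into 2 seed groups. The 3p strands share the seed GCAGCAU, and the 5p strands share the seed GCUUCUU. Counting from 1 at the 5′ end, miR-107-3p differs from miR-103-3p by 1 base, G22C, and the first 21 bases are identical. A read that stops before base 22 therefore matches both 3p strands, and how such reads were assigned is not given in the sources used here. Among the 5p strands, miR-103-1-5p and miR-103-2-5p differ by G1A, and miR-103-2-5p and miR-107-5p differ by C16U. None of the 5 strands was found in a transcript of another gene, among 141764 GENCODE vM21 transcripts searched.

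Each hairpin is printed from RefSeq on GRCm38, the build that the labels name as mm10, because the arms, the loop and the flanks show which bases a read must cover to identify its source. Capitals mark the 5p strand and then the 3p strand.
mmu-mir-103-1: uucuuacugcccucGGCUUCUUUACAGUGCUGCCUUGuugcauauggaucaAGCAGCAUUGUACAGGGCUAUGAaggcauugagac
mmu-mir-103-2: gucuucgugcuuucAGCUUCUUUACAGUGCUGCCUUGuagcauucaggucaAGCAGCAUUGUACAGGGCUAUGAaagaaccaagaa
mmu-mir-107: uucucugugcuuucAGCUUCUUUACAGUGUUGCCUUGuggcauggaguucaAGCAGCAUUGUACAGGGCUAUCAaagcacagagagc

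The arms are separated by 14 bases in each hairpin. In the structures of lowest free energy, computed with RNAfold, 18 of the 23 bases of the 3p strand paired with the 5p strand in each of the 3 hairpins. The computed energies were -35.8 kcal/mol for mir-103-1, -31.8 kcal/mol for mir-103-2 and -41.2 kcal/mol for mir-107. The 3p strands of mir-103-1 and mir-103-2 are the same molecule, so a full-length read of miR-103-3p does not say which Pank gene it came from.

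Each hairpin lies on the strand of its host gene and within intron 5 of the 6 introns of the host's transcript. Mir103-1 is at chr11:35782396-35782481 on the plus strand, in Pank3, with 688 bases to the exon before it and 966 bases to the exon after it. Mir103-2 is at chr2:131288052-131288137 on the plus strand, in Pank2, 454 bases from the exon before it in an intron of 5801 bases. Mir107 is at chr19:34820687-34820773 on the minus strand, in Pank1, 326 bases from the exon before it in an intron of 7282 bases. In all 3 hosts the hairpin was intronic in each coding transcript that spans it, which were 1 for Pank3, 2 for Pank2 and 3 for Pank1. Messenger RNA of the hosts was not measured in these libraries.

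**Figure D1:**
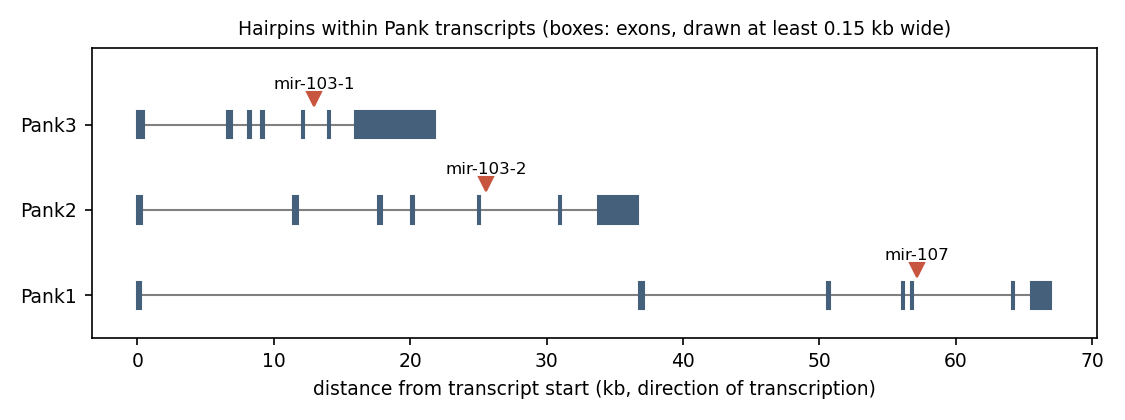
Position of each hairpin (triangle) in the transcript of its host gene, with exons as boxes and the horizontal axis in kb from the transcript start in the direction of transcription. In Pank3, Pank2 and Pank1 alike, the hairpin sits in intron 5, after the exon numbered 5.

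The libraries differed widely in depth, and this set what could be seen of the members. The cell libraries held 2930217 and 2564068 mature miRNA reads, while the exosome libraries held 47447 and 31409. The deposited RPM scales each count to these totals, which makes 1 read worth 0.341 and 0.390 RPM in the cell libraries and 21.1 and 31.8 RPM in the exosome libraries. A floor of 3 reads thus stood at 63.2 and 95.5 RPM in the exosomes. A second scale, normalized CPM, corrects the library total by the TMM method of edgeR, with factors of 0.660 and 0.612 in the cell libraries against 1.80 and 1.38 in the exosome libraries. Intervals and floors cover counting error only.

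miR-103-3p, the guide strand of the miR-103 hairpins, was the most abundant member in cells, and its level in exosomes was not resolved. It had 942 and 822 reads in the cells against 27 and 4 reads in the exosomes. On the RPM scale the levels were 321 and 321 in the cells against 569 and 127 in the exosomes, so that the exosome libraries lay on either side of the cells. The exact Poisson interval (95%) of the first exosome library was 375 to 828 RPM, and that of the second was 34.7 to 326 RPM. The intervals of the exosome libraries do not overlap each other, and the second overlaps those of the cells.

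On the normalized CPM scale miR-103-3p had values of 488 and 524 in the cells against 318 and 93.1 in the exosomes. The groups did not overlap on this scale, with exosomes the lower, a separation that 85.2% of the 438 tested miRNAs also had. The cell mean was 506 ± 25.5 (SD, n = 2) and the exosome mean 206 ± 159 (SD, n = 2), so the spread within the exosome group was large beside its mean. The log2 fold change, exosome minus cell, was -1.22 (SE 0.62, 95% interval -2.92 to 0.48) with an adjusted p of 0.163 (quasi-likelihood test of edgeR with Benjamini-Hochberg adjustment), and it was 0.17 when library size alone set the scale (adjusted p = 0.860). The change did not pass the test, and its direction depended on the scaling. Without the first exosome library the value was -2.07 with an adjusted p of 0.00603 in the edgeR test, a call that rests on 4 reads of a single exosome library assumed to vary as the cells do.

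miR-107-3p, which shares the seed of miR-103-3p, was the less abundant 3p strand in cells. It had 176 and 145 reads in the cells against 9 and 4 reads in the exosomes. On the RPM scale these were 60.1 and 56.6 in the cells against 190 and 127 in the exosomes. The exosome levels were the higher, with no overlap between the groups. How many tested miRNAs separate in this way on RPM was not counted, while on normalized CPM 85.2% of 438 did, in either direction. With library size alone, as on RPM, the median log2 fold change of the tested miRNAs, exosome minus cell, was 0.61. The separation is therefore not shown to be particular to miR-107-3p. The intervals were wide in the exosomes, at 86.7 to 360 RPM in the first library and 34.7 to 326 RPM in the second, and the second includes the levels of both cell libraries.

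On the normalized CPM scale the levels of miR-107-3p came close together, at 91.1 and 92.4 in the cells against 106 and 93.1 in the exosomes. The means were 91.8 ± 0.906 (SD, n = 2) and 99.6 ± 9.17 (SD, n = 2). The log2 fold change was 0.14 (SE 0.36, 95% interval -0.85 to 1.12) with an adjusted p of 0.750 in the edgeR quasi-likelihood test. On library size alone it was 1.48 (95% interval 0.28 to 2.68), with an adjusted p of 0.0601 in the same test. The interval on normalized CPM reaches from a decrease to an increase and does not show that the levels were equal.

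**Figure D2:**
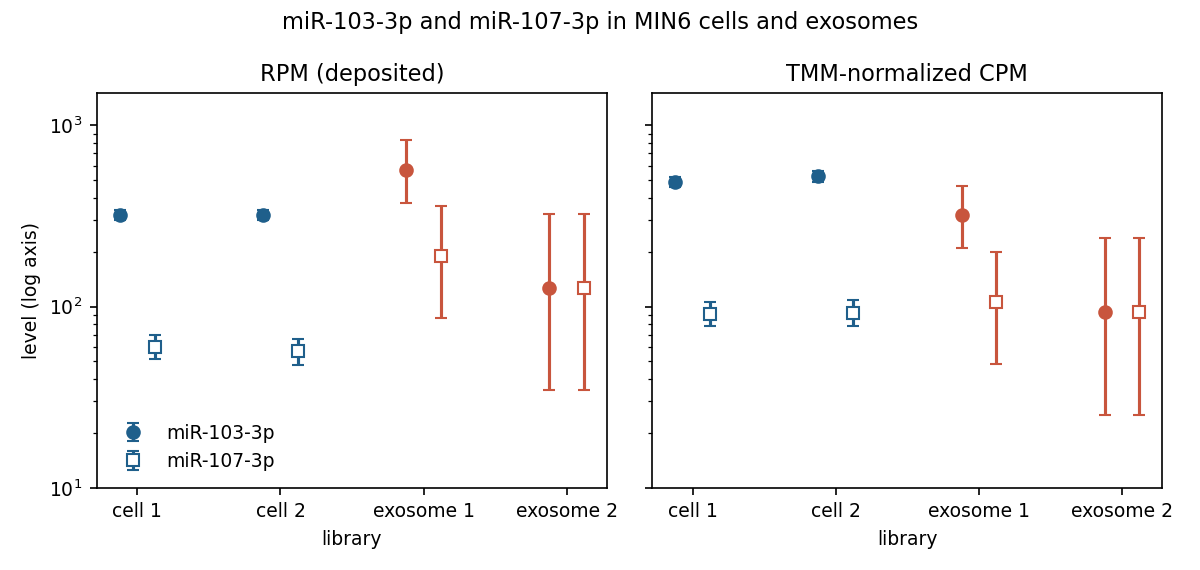
Levels of miR-103-3p (filled circles) and miR-107-3p (open squares) in each library, as deposited RPM on the left and as TMM-normalized CPM on the right, on a log axis with exact 95% Poisson intervals. miR-107-3p stays near 92 normalized CPM in the cells while miR-103-3p stands at 488 and 524, and in the second exosome library both rest on 4 reads and coincide.

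Of the 5 members, 4 passed the filter on low counts, and 0 of these 4 were called by the edgeR quasi-likelihood test at an adjusted p of 0.05. With no filter on low counts 2 of the 5 were called lower by the same test, miR-103-3p (adjusted p = 0.0261) and miR-103-2-5p (adjusted p = 0.0436). In that fit 202 of all 1101 tested miRNAs were called lower and 104 higher. With the filter, at an unadjusted p of 0.05, 1 of the 4 passed, which was miR-103-2-5p. In the background of 438 tested miRNAs, 23.7% were called higher in exosomes and 29.5% lower at the adjusted threshold. All of these pass the unadjusted threshold too, and the full share that passes it was not counted. By the rule the study names, the exactTest of edgeR at 2-fold and an unadjusted p of 0.05, 0 of the 4 were called, while 27.4% of tested miRNAs were called higher and 37.9% lower. DESeq2 called 0 of the 3 members for which it gave an adjusted p, and it gave none for miR-103-2-5p. The unadjusted exactTest p was 0.0925 for miR-103-3p and 0.842 for miR-107-3p. For miR-103-2-5p, with 0 reads in both exosome libraries, it was 0.0509, and for miR-103-1-5p it was 0.561.

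The scaling moved all miRNAs together, and the members are therefore also given relative to the middle of the table. The median log2 fold change of the 438 tested miRNAs was -0.75 with TMM and 0.61 with library size alone, and calls went from 104 higher and 129 lower to 137 higher and 30 lower. Relative to that median, miR-103-3p lay at -0.48 with TMM and -0.43 with library size alone. miR-107-3p lay at 0.88 and 0.87 above it. By rank, 197 of the tested miRNAs had a lower fold change than miR-103-3p and 256 had a lower one than miR-107-3p. Both 3p strands thus stood in the middle range of the table. In the fits of all 4 libraries the order of the pair was kept under each scaling tried. Without the first exosome library miR-103-3p lay at 0.46 and miR-107-3p at 2.92 above the median of that fit. Without the second they lay at 0.41 and 1.29 above it. miR-103-3p thus changed its side of the median in these fits, while the order of the pair was kept.

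**Figure D3:**
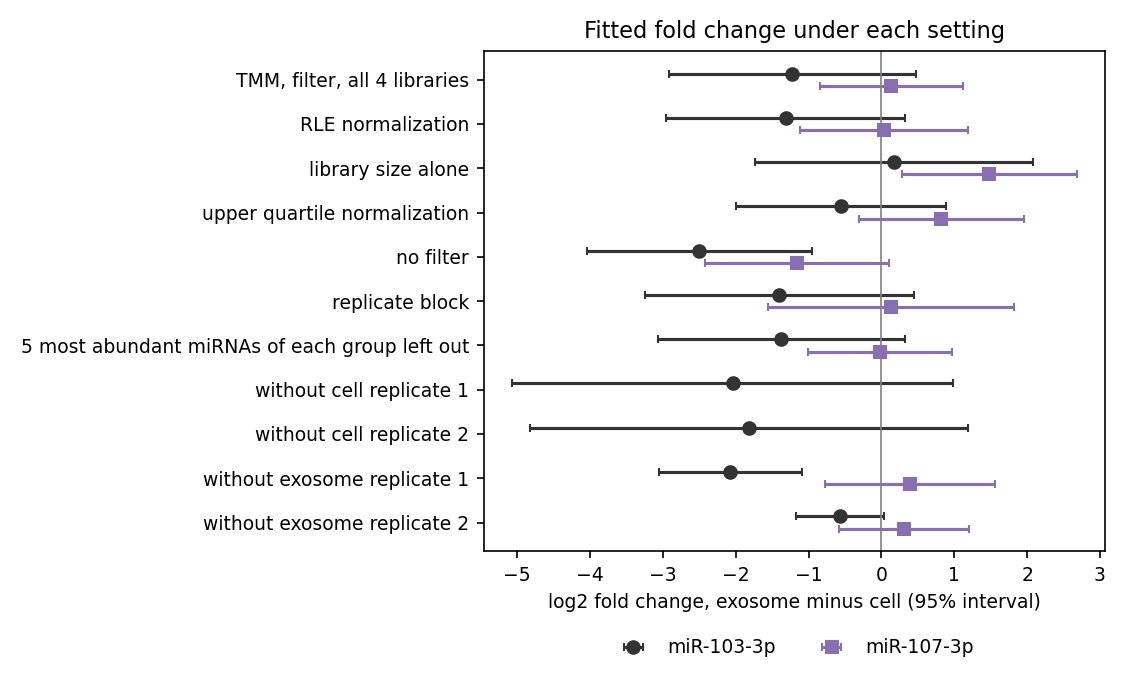
Log2 fold change, exosome minus cell, of miR-103-3p (black circles) and miR-107-3p (purple squares) under each setting, with 95% intervals. The interval of miR-103-3p leaves out 0 only with no filter and without the first exosome library, and that of miR-107-3p only with library size alone.

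The balance between the 2 strands needs no scaling, since both are read from the same library. It does assume that the reads of the strands are separate. A read that stops before the base at which they differ matches both strands. Whether such reads were counted under both names was not tested. The 4 reads of each strand in the second exosome library were not shown to be different reads. miR-107-3p made up 15.7% of the 1118 reads of both 3p strands in the first cell library (95% Wilson interval 13.7 to 18.0) and 15.0% of 967 in the second (12.9 to 17.4). In the exosomes it made up 25% of 36 reads (13.8 to 41.1) and 50.0% of 8 reads (21.5 to 78.5). Both exosome values lay above both cell values, but the interval of the first exosome library overlaps those of the cells.

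The mean share in cells was 15.4% ± 0.529 (SD, n = 2) and that in exosomes 37.5% ± 17.7 (SD, n = 2), a difference of 22.1 percentage points. The exact two-sided permutation test gave p = 0.333, which is the smallest p that 2 against 2 libraries allow. Without the first exosome library the difference was 34.6 points and without the second 9.63 points, so single libraries set its size. As a ratio, the log2 of miR-107-3p over miR-103-3p was -2.42 and -2.50 in the cells against -1.58 and 0.00 in the exosomes.

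**Figure D4:**
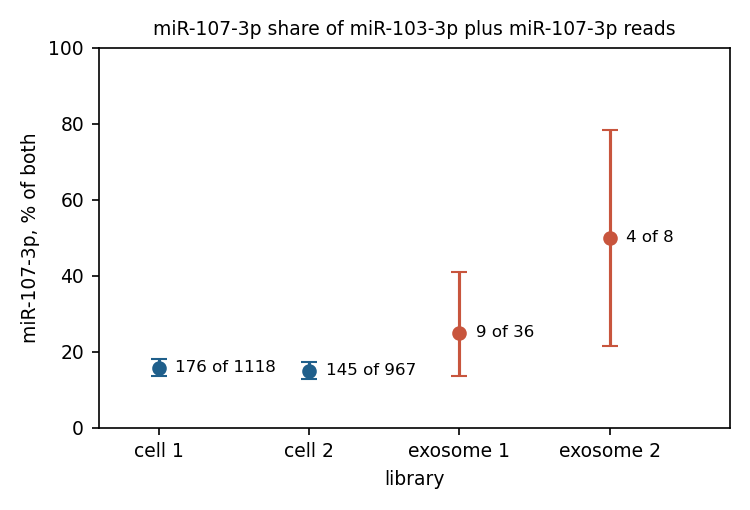
Share of miR-107-3p among the reads of both 3p strands, in percent, with 95% Wilson intervals and the read counts behind each point. Shares and intervals treat the reads of both strands as separate, which was not tested. The cell libraries sit at 15.7% and 15.0%, and the exosome libraries at 25% and 50.0% with intervals that widen as the reads fall to 36 and 8.

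The hairpin tables show from which precursor the miR-103-3p reads could have come. In the first cell library 936 reads were listed for the 3p arm of mir-103-1 and 939 for that of mir-103-2, against 942 reads of the mature strand. In the second the values were 809, 815 and 822. The mature count is thus close to each hairpin and far from their sum, so nearly all reads were listed under both hairpins and counted once in the mature table. By subtraction, 99.0% and 97.6% of the reads in the cells were shared, and 9 and 20 reads were listed under 1 hairpin. In the exosomes 24 of 27 reads and 4 of 4 reads were shared. Most of the miR-103-3p signal cannot be divided between Pank3 and Pank2.

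The 5p strands do tell the hairpins apart, by their first base. miR-103-1-5p, from the Pank3 intron, had 26 and 29 reads in the cells, and miR-103-2-5p, from the Pank2 intron, had 32 and 26. The share of miR-103-1-5p among the reads of both was 44.8% (95% Wilson interval 32.7 to 57.5) and 52.7% (39.8 to 65.3). Both intervals include equal parts, and they overlap each other. A difference in base 1 can also be lost from a read shortened at its 5′ end, and the share rests on 58 and 55 reads.

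In exosomes the 5p strands were at or near 0. miR-103-1-5p had 1 and 0 reads, and miR-103-2-5p had 0 and 0. At the mean RPM of the cells, the exosome libraries would have held 0.479 and 0.317 reads of miR-103-1-5p and 0.500 and 0.331 reads of miR-103-2-5p. At the mean normalized CPM of the cells they would have held 1.35 and 0.686 reads of miR-103-1-5p and 1.41 and 0.711 reads of miR-103-2-5p. All these expected counts lie under the floor of 3 reads, so a decrease from the level of the cells was not detectable at this depth. No fold is given for miR-103-2-5p (adjusted p = 0.0698, edgeR quasi-likelihood test). For miR-103-1-5p the ratio of exosome to cell was 0.498 on normalized CPM (exact 95% counting interval 0.0124 to 2.89) and 1.27 on RPM (0.0315 to 7.36).

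miR-107-5p was the rarest member, with 7 and 2 reads in the cells against 0 and 0 in the exosomes. Its level in cells was 2.39 and 0.780 RPM, far below the exosome floor. It did not pass the filter and was not tested.

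The 3p strand dominated each hairpin in cells. The 5p strand made up 2.70% and 3.46% of the arm reads of mir-103-1, 3.30% and 3.09% of those of mir-103-2, and 3.83% and 1.36% of those of mir-107. The Wilson intervals of these 6 values overlap, the widest being that of mir-107 in the first library at 1.87% to 7.68%. Over both cell libraries the minor arm held 3.06%, 3.20% and 2.73% of the reads, against a median of 4.25% over 186 hairpins with at least 100 reads. Of those hairpins 75 to 82 had a smaller minor arm than the 3 described here. Reads outside both arms were 1 in mir-103-1 and 1 in mir-103-2, each in a single cell library, and 0 in mir-107, and 0 in the exosomes for all 3.

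**Figure D5:**
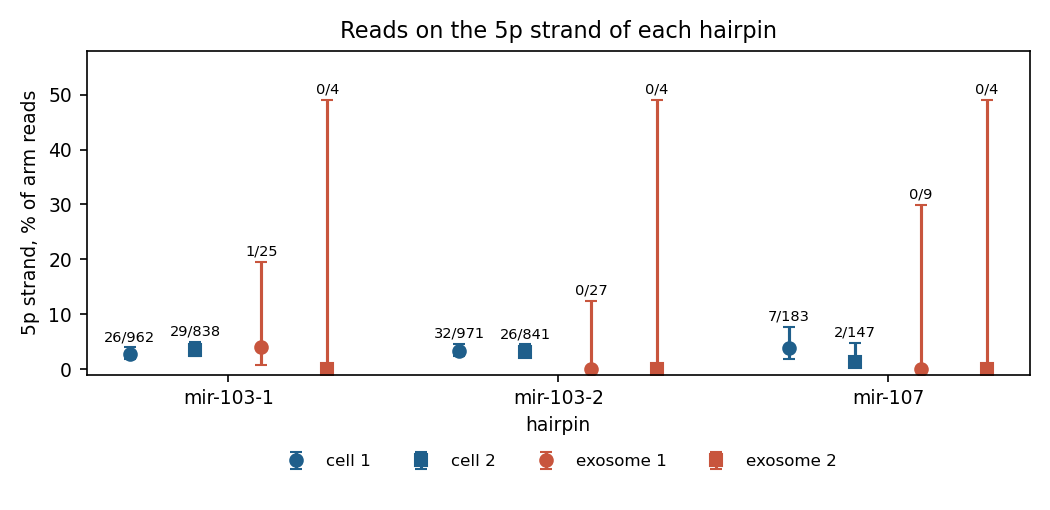
Share of the 5p strand among the reads of both arms, in percent, for the 3 hairpins and 4 libraries, with 95% Wilson intervals and the reads behind each point. The cell libraries (blue) lie between 1.36% and 3.83%, and the exosome libraries (red) hold 1 read of a 5p strand in all, with intervals that reach up to 49.0%.

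The list of beta-cell, blood-cell, liver and muscle miRNAs checked the labelled source of the libraries. Of 13 miRNAs listed for the beta cell all 13 had reads, and miR-375-3p, the miRNA best known from islets, had 9113 and 9881 RPM in the cells against 10686 and 7068 RPM in the exosomes. Of 12 of these tested with edgeR, 8 were lower and 0 higher in exosomes, and with library size alone 2 were lower. In the list of 7 blood-cell miRNAs all 6 tested were higher in exosomes by the edgeR test, and the summed level of the list went from 2.73 and 3.51 RPM in the cells to 8536 and 2356 RPM in the exosomes. Of the erythroid and myeloid markers, miR-451a and miR-142a-3p were at 0 in both cell libraries. miR-122-5p, the most abundant miRNA of hepatocytes, had 4.44 and 8.19 RPM in the cells against 1665 and 1974 RPM in the exosomes. It was the 1 called of 3 liver miRNAs, whose median log2 fold change was -0.61, and miR-192-5p (-0.61) and miR-194-5p (-0.81), also made in the gut, were not called by edgeR. Of the 3 muscle miRNAs, miR-1a-3p had 47 and 29 reads in the cells against 3 and 0 in the exosomes and was not called, and miR-133a-3p and miR-206-3p were at 0 in all libraries. miR-103-3p and miR-107-3p are made in many tissues, and the part of such RNA in their exosome reads was not tested. In bulk RNA, fewer vesicles and fewer copies of a miRNA per vesicle cannot be told apart.

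The seed of the 3p strands was compared with the miR-15/16 relatives, which carry AGCAGC, the first 6 bases of miR-103-3p, shifted by 1 base. The string was searched on the mature strand alone, and 13 of 1679 mouse miRNAs of RefSeq (0.774%) hold it within their first 8 bases. Of these 1679, only miR-103-3p and miR-107-3p have the full seed GCAGCAU. The relatives with reads that are named here begin as follows, with AGCAGC in capitals.
mmu-miR-16-5p: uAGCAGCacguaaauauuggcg
mmu-miR-15b-5p: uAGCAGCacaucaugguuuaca
mmu-miR-497a-5p: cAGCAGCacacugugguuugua

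The 13 miRNAs include miR-103-3p and miR-107-3p themselves. Of the 13, 5 were tested, 0 were higher and 1 was lower in exosomes, beside 23.7% higher and 29.5% lower over all 438 tested. Of 9 listed miR-15/16 relatives alone, 3 were tested, 0 were higher and 1 was lower. miR-15b-5p, which represses cell-cycle genes as miR-16-5p does, had 409 and 319 reads in the cells against 3 and 1 in the exosomes. The fitted change was -2.74 on the log2 scale (SE 0.46, adjusted p = 0.0143 in the edgeR quasi-likelihood test), and -1.39 with library size alone (adjusted p = 0.120, same test). miR-16-5p had 798 and 542 reads in the cells against 39 and 2 in the exosomes, for a fitted log2 change of -0.49 (SE 0.92, adjusted p = 0.661 in the same test). On the RPM scale miR-16-5p, like miR-103-3p, stood above the cells in the first exosome library and below them in the second. miR-497a-5p had 58 and 38 reads in the cells against 9 and 0 in the exosomes and did not pass the test.

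Other miRNAs tied to insulin action and glucose handling were read from a list of 22. Of these 19 were tested, 4 were higher and 11 lower in exosomes by the edgeR test (1 lower with library size alone). Their median log2 fold change was -2.65, beside -0.75 over all tested miRNAs. The list holds several strands of the let-7 family, so its counts and median are not those of unrelated miRNAs. The most abundant were let-7f-5p, at 180907 and 171217 RPM in the cells against 65989 and 15091 RPM in the exosomes, and let-7a-5p, at 145448 and 145529 RPM against 87740 and 25884 RPM. Both belong to the let-7 family, known to act on the insulin and IGF pathway, and both were called lower, though not with library size alone. Next in abundance were let-7c-5p (log2 fold change -2.20, adjusted p = 0.0574) and let-7b-5p (-1.37, adjusted p = 0.103), which the edgeR test did not call. miR-29c-3p, known to lower insulin signalling, fell from 701 and 815 RPM to 126 and 95.5 RPM and was called under each of the 4 scalings. miR-143-3p, reported to impair insulin-stimulated AKT activation, rose from 12.6 and 8.19 RPM in the cells to 822 and 605 RPM in the exosomes. The 2 members tested from the 3p arms, at -1.22 and 0.14 on the log2 scale, were not called in either direction.

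As a comparison for intronic origin, 26 miRNAs hosted in other protein-coding genes were listed. Of 20 tested, 2 were higher and 8 lower (4 and 1 with library size alone), and the median log2 fold change was -1.71, or -1.22 with 2 miRNAs that were at 0 in both exosome libraries set to the bound that the floor allows. Over all 438 tested miRNAs the median was -0.75, or -0.33 at the same bounds. miR-25-3p, from an intron of Mcm7, was called lower except with library size alone, and miR-139-5p, from an intron of Pde2a, was called higher with 12 and 10 reads in the cells against 11 and 5 in the exosomes. miR-342-3p, from an intron of Evl, was not called. miR-185-5p was not called either, except as higher with library size alone (log2 fold change 1.76, adjusted p = 0.0404 in the edgeR test).

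The pattern over the 4 libraries was set beside those of the other 437 tested miRNAs, by the distance between log2 normalized CPM values centred on each miRNA's mean. Nearest to miR-103-3p were miR-1843b-3p (distance 0.31), miR-146b-5p (0.51), miR-7224-3p (0.65), miR-1306-5p (0.66) and miR-879-3p (0.66). Nearest to miR-107-3p were miR-30e-5p (0.24), miR-25-5p (0.26), miR-505-3p (0.31), miR-140-3p (0.42) and miR-3102-5p.2-5p (0.45). The 2 strands were not near each other, at a distance of 1.99. miR-107-3p ranked 112th from miR-103-3p, and miR-103-3p ranked 97th from miR-107-3p. Distances rest on 4 libraries, and those of miR-7224-3p and miR-879-3p on 1 exosome read each.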

How the data were processed

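Small RNA libraries were made with a kit that adds a tail of A to the RNA, so the final A of the 3p strands cannot be told from the tail. Per the labels and the study's methods, reads were trimmed, cleared of rRNA and aligned to the genome (mm10), miRBase and RNAcentral. The processing notes of the submitters name cutadapt, Bowtie, Bowtie2, STAR, RSEM and edgeR, without versions. The authors deposited a count per mature miRNA as whole reads. The authors also deposited RPM values, which equalled the count over the library sum within 5e-07. Per-library tables of reads per hairpin and arm were deposited as counts too. Exosome and cell libraries were checked on different instruments, which cannot be told apart from the group.

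The members and lists were chosen with earlier results of these data known. Samples were grouped by their titles. miRNAs were kept by filterByExpr (minimum count 10), scaled by TMM and tested over the whole table with the quasi-likelihood test of edgeR 4.0.16 (R 4.3.3), with Benjamini-Hochberg adjustment and calls at 0.05. DESeq2 1.42.0, the exactTest of edgeR and other scalings, filters and samples were alternatives. The fits were tested on simulated counts. Medians were also taken with a group at 0 reads set to its mean floor (3 reads per library), or with no change where that bound allows one. Intervals are Wilson for shares, exact Poisson for counts and exact binomial for ratios, at 95%. Structures were computed with ViennaRNA 2.7.2, permutation tests with scipy 1.17.1, and positions were taken from GENCODE vM21.

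Named miRNAs are the members, the listed miRNAs most abundant in cells or most changed among those called (up to 4 a list each), and the 5 nearest to each 3p strand. Replicates differed beyond sampling noise, with a chi-square per degree of freedom of 10.6 in cells and 22.6 in exosomes.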

Additional observations from a re-analysis of the deposited data

How the results depend on the processing

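The log2 fold change of miR-103-3p kept its direction and stayed short of the threshold in 10 of 13 alternatives. It turned to 0.17 with library size alone, and passed the edgeR test with no filter (-2.50, adjusted p = 0.0261) and without the first exosome library, with a range from -2.07 to -0.57 over the libraries left out. miR-107-3p kept its direction in 8 of 11 alternatives. It turned to -1.16 with no filter and to -0.020 without the 5 most abundant miRNAs of each group, and without an exosome library it was 0.31 to 0.39. With a cell library left out it did not pass the filter, and at 10 or more counts in every library neither 3p strand did, so no value was obtained there. The fit of both 3p strands summed (-0.93) is counted among the alternatives of each, as a change of direction for miR-107-3p. Its value describes the sum, most of whose reads in cells were miR-103-3p, and not either strand alone. miR-103-2-5p passed the edgeR test with no filter (adjusted p = 0.0436), on counts of 0 in both exosome libraries. The share difference of miR-107-3p kept its direction in all 6 alternatives, at 9.63 to 34.6 points over the libraries left out. The cause of these changes was not tested.

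Calls over all miRNAs moved by over 1.5 times with 10 or more counts in every library (37 higher and 40 lower, of 100 tested), with library size alone (30 lower) and with no filter (202 lower). They also did so without the first cell library (51 higher and 70 lower, of 238 tested) and without the second (46 and 56, of 239). Over all libraries left out, 46 to 115 were higher and 56 to 162 lower. The median of all fold changes turned to 0.61 with library size alone. With the replicate number as a block the edgeR test gave -1.40 for miR-103-3p (adjusted p = 0.197) and 0.13 for miR-107-3p (adjusted p = 0.894), with 117 called higher and 109 lower. The labels do not say that a number pairs a cell and an exosome library, so the block was not taken as a pairing. Over the tested miRNAs, the difference between the cell libraries correlated at 0.19 with that between the exosome libraries. A single difference per group cannot decide whether the libraries were paired. Depth limits the 5p strands, whose level in cells lies under the exosome floor.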
